A study of Mus musculus with 2 samples.

Results

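A set of 10 genes that sense, make, degrade and bind retinoic acid was examined for open chromatin, namely the receptor genes Rara, Rarb and Rarg, the oxidase genes Cyp26a1, Cyp26b1 and Cyp26c1, the synthesis gene Aldh1a2, the binding protein genes Crabp1 and Crabp2, and the reductase gene Dhrs3. An interval was assigned to one of these 10 genes when its nearest protein-coding transcription start site (TSS) in the mouse build mm10 belonged to that gene, which gave 150 of the 119502 intervals. This rule gives position only and does not show which gene an interval acts on. Many of the intervals nearest Cyp26b1, Cyp26c1 and Dhrs3 lie inside the neighbouring genes Exoc6b, Exoc6 and Vps13d. ATAC-seq, which uses the Tn5 transposase to cut and tag open DNA, gave the accessibility. The cells were neural progenitors of the mouse embryonic stem cell line Olig2-mKate2, in which the red fluorescent protein mKate2 follows the motor neuron progenitor gene Olig2. They were cultured with bFGF and LGK, then with bFGF, CHIR99021, SB-431542 and DMH1, and lastly to day 5 with 100 nM retinoic acid and 100 nM of the Sonic hedgehog pathway agonist SAG. Live mKate2-positive cells were sorted and 50000 cells entered each transposition, giving 1 group of 2 replicates with 31876165 and 31672240 counts in intervals. All cells had received retinoic acid and SAG, no untreated cells were part of the group, and no contrast between conditions can be drawn. The reporter marks Olig2 expression, and the study describes that the sort also takes in motor neurons that have just formed and some cells with both OLIG2 and NKX2.2. The labels do not say whether the replicates came from separate cultures, and their spread may be technical. The signal is a mean over the sorted cells, so fewer open cells and less opening per cell cannot be told apart.

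Retinoic acid is made from retinaldehyde by Aldh1a2, is bound in the cytoplasm by Crabp1 and Crabp2, and is oxidised to inactive products by the Cyp26 enzymes, while Dhrs3 returns retinaldehyde to retinol. The receptors Rara, Rarb and Rarg pair with retinoid X receptors on response elements, which are direct repeats of a short half-site, and switch from repression to activation when the ligand binds. In the developing spinal cord retinoic acid from the somites drives neural progenitors towards differentiation and, with Sonic hedgehog, promotes the motor neuron progenitor state.

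A direct repeat of a half-site with 5 bases between the copies (DR5), the classical element of these receptors, was found on either strand in 6 of the 150 intervals (4%). Over all intervals the share was 0.679%. The half-site searched was AGGTCA, with G also allowed as the first base and T as the third. The sequences are printed because they place the receptors' own recognition letters inside open intervals of 4 of the genes. Capitals mark the DR5, all runs read 5′ to 3′, and the sequences are those of RefSeq and the genome assembly GRCm38.p6, the assembly of mm10. The first pair are 300-base promoter windows (250 bases before and 50 after the RefSeq start), and the others are the DR5 with 30 bases on each side, in the orientation of the repeat. The Cyp26a1 promoter DR5 reads on the minus strand, so its window shows the reverse complement.
Rarb promoter, chr14:16575427-16575726, minus strand: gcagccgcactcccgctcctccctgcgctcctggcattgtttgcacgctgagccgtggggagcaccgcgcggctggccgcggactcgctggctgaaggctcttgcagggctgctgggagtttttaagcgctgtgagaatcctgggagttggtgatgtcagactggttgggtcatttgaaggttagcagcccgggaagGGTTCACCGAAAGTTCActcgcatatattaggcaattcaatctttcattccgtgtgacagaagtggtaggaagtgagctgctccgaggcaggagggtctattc
Cyp26a1 promoter, chr19:37697558-37697857, plus strand: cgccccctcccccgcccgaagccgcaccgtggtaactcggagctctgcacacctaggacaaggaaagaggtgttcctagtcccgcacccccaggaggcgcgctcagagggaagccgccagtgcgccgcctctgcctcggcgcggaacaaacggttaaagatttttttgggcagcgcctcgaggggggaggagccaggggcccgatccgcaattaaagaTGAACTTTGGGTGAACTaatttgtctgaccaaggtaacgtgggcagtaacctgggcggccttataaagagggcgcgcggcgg
Rara downstream promoter, chr11:98959978-98960054, plus strand: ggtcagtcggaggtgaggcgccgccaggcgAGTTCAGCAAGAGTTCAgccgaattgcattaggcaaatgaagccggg
Cyp26a1 upstream interval, chr19:37695879-37695955, plus strand: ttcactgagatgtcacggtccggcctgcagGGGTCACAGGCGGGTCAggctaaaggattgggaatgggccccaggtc
Cyp26a1 downstream interval, chr19:37770274-37770350, minus strand: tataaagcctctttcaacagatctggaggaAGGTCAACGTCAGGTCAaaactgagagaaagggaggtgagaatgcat
Dhrs3 first distal interval downstream, chr4:144898345-144898421, plus strand: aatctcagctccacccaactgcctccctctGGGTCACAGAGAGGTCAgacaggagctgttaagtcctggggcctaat

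The Rarb DR5 spanned positions -53 to -37 from the RefSeq start, and the Cyp26a1 promoter DR5 spanned -32 to -16. From the nearest annotated start used to assign intervals, the Rarb site lay 22 bp downstream and the Cyp26a1 promoter site 14 bp upstream. With positions counted from 1 at the 5′ end of the 17-base element, these 2 sites shared 15 of 17 bases and differed by G1A and G9C, the Rarb base written first. The Rara site and the Cyp26a1 promoter site had the same pair of half-sites and differed by G7C, A9C and G11A, all in the spacer, with the Rara base first. The upstream Cyp26a1 site and the Dhrs3 site shared 14 of 17 bases and differed by G10A, C11G and G12A, with the Cyp26a1 base first. The Rara site lay 396 bp upstream of its nearest annotated start.

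Among the receptor genes, the downstream promoters of Rara and Rarg were denser than their upstream ones, and Rarb had an interval at its downstream promoter only. Density is the count divided by the DESeq2 size factor and by the interval's length in kb. Of the 27 distinct protein-coding starts of the 10 genes, 19 lay in an interval, and the other 8 belonged to 5 genes. Rara (chr11:98927818-98974942, plus strand) had 5 distinct protein-coding starts and 3 TSS intervals, meaning intervals that overlap such a start. At its most upstream start the density was 171 in replicate 1 and 174 in replicate 2 (172 ± 2.58 normalised counts per kb, SD, n = 2), at the middle pair of starts it was 774 and 758 (766 ± 10.8), and at the downstream start, whose interval holds the printed DR5, it was 1109 and 1024 (1067 ± 60.0). The replicates of these 3 intervals did not overlap, and the downstream interval was 6.19 ± 0.441 times as dense as the upstream one. The upstream interval rested on 45 and 46 counts and was only 264 bp long, and the downstream one on 2006 and 1854 counts over 1809 bp.

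Rarb (chr14:16430839-16819156, minus strand) had 4 starts in 2 clusters. The downstream pair lay in 1 interval with 2594 and 2487 counts, at 1204 and 1154 normalised counts per kb (1179 ± 35.8), and this interval contains the promoter DR5. The upstream pair lay in no interval, and the closest interval began 3115 bp from the nearer start with a density of 78.2 ± 8.14. The table lists called intervals only, so accessibility below the calling threshold at the upstream starts was not measured. Rarg (chr15:102234938-102257517, minus strand) had 5 starts and 2 TSS intervals, the downstream one at 842 and 824 (833 ± 12.8) and the upstream one at 212 and 191 (201 ± 14.7). The downstream interval of Rarg was 4.15 ± 0.24 times as dense, and the replicates of the 2 intervals were well apart.

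**Figure D1:**
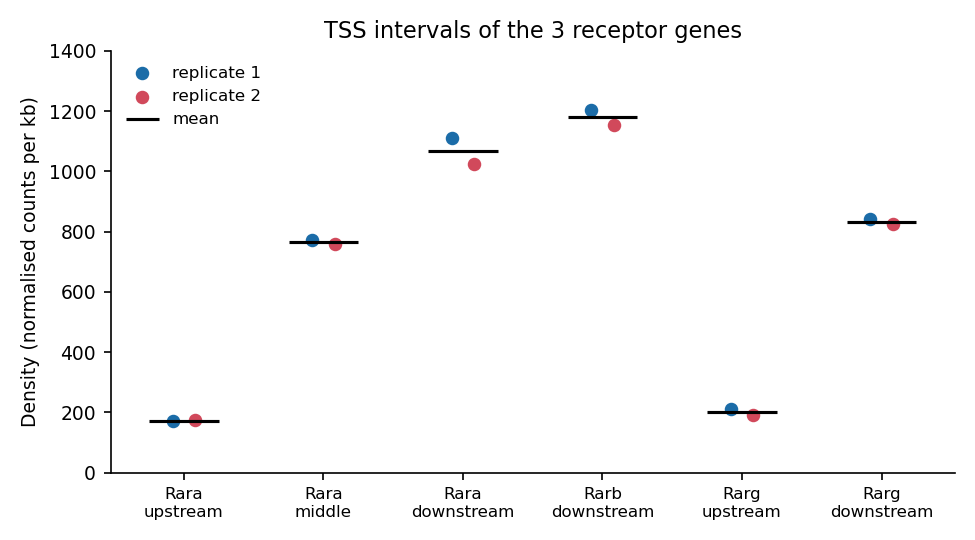
Density of the TSS intervals of Rara, Rarb and Rarg (normalised counts per kb, linear axis from 0). Points are replicates and bars their mean. In Rara and Rarg the upstream interval lay at 172 and 201, and the downstream intervals of the 3 genes lay between 833 and 1179.

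The densest of the 150 intervals were distal, meaning that they overlapped no protein-coding start. The top 3 were assigned to Rarb, a receptor gene that is itself a well-known target of retinoic acid. The interval at chr14:16901442-16902390, intergenic and 82.3 kb upstream of the nearest Rarb start, had densities of 2041 and 2063 (2052 ± 16), above 99.8% of all distal intervals. The interval at chr14:16841095-16842251, also upstream, had 1753 and 1874 (1813 ± 85.7). The one at chr14:16733070-16734163, lies in a Rarb intron between both start clusters and had 1780 and 1751 (1766 ± 21.1). The replicate ranges of the last pair overlapped, so they cannot be ordered, and the 82.3 kb interval exceeded both in each replicate. These 3 were named after their values were seen, as was every interval given below only by its rank. Rarb had 42 intervals in all, 27 of its distal ones upstream and 14 downstream of the nearest start, reaching out to 416 kb. A mean normalised count over 100 was reached by 11 of them, beside 38.8% of all intervals (92.5% of TSS and 31.2% of distal ones). The 41 distal intervals of Rarb ranged from 43.4 to 2052 normalised counts per kb. Their median was 129, beside 124 over all distal intervals.

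The densest distal interval of Rara lay in an intron, at chr11:98968524-98969949, 8.11 kb from the nearest start, with 1478 and 1469 (1473 ± 6.80), above 99.4% of distal intervals. It exceeded each of the 3 Rara TSS intervals in both replicates. Of the 12 Rara intervals 10 had a mean normalised count over 100, beside 38.8% of all intervals. In Rara, 6 of the 9 distal intervals were in introns of the gene. Rarg had only 3 intervals and 1 distal one, in a coding exon at chr15:102239116-102239801, with 537 and 533 (535 ± 2.37). All 3 of its intervals exceeded a mean of 100, and 2 of them were TSS intervals. Over all intervals 92.5% of TSS and 31.2% of distal ones exceeded that mean.

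Of the 3 oxidase genes, Cyp26a1 and Cyp26b1 had a TSS interval and Cyp26c1 had none. Cyp26a1 (chr19:37697798-37701536, plus strand), the retinoic acid-induced member of the family, had a TSS interval of 302 and 269 (286 ± 23.5), which holds the promoter DR5 and rested on 521 and 464 counts. The upstream interval with the second DR5, chr19:37695811-37696181, had 429 and 361 (395 ± 47.9), denser than the promoter interval in both replicates. The remaining DR5 interval of Cyp26a1, 72.4 kb from its start, was weaker, at 174 and 120 (147 ± 38.0), and rested on 39 and 27 counts. The densest distal interval nearest to Cyp26a1 was at chr19:37692789-37693495, 458 and 440 (449 ± 13.3), and it overlaps a coding exon of the neighbouring Cyp26c1. Cyp26c1 (chr19:37685581-37693398, plus strand) had no TSS interval. The closest of its 8 intervals lay 897 bp from its start with 191 and 205 (198 ± 10.3), and the densest, in its own coding exon at chr19:37690749-37691102, had 432 and 387 (410 ± 32.2). Both genes lie next to each other, and their 15 intervals together hold no interval above 449 normalised counts per kb.

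Cyp26b1 (chr6:84571414-84593908, minus strand), known for its part in limb bud and hindbrain patterning, had 31 intervals, of which 11 exceeded a mean of 100, beside 38.8% of all intervals. Its TSS interval covered 3 internal starts with 430 and 389 (410 ± 28.5). Its upstream pair of starts lay 31 and 193 bp outside an interval with 516 and 494 (505 ± 15.1), which counts as distal by the overlap rule. Its densest distal interval, chr6:84640298-84641368, sits in an intron of Exoc6b 46.4 kb from the start and had 727 and 743 (735 ± 11.5). That interval was above 96.3% of distal intervals, and it contains no exact DR5.

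Aldh1a2 (chr9:71215789-71296243, plus strand), the main embryonic source of retinoic acid in paraxial mesoderm, had the lowest promoter density of the genes with a TSS interval, at 252 and 227 (240 ± 17.9). It lay at the 10.9 percentile of the genes with a TSS interval. Its densest distal interval, in its own intron at chr9:71241177-71242251, had 264 and 279 (272 ± 10.4), and the replicate ranges of the promoter and that interval did not overlap. The median of its 8 distal intervals was 107, beside 124 for all distal intervals. A mean of 100 was exceeded by 3 of its 9 intervals, beside 38.8% of all intervals.

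Crabp2 (chr3:87948666-87953376, plus strand), which carries retinoic acid to the nucleus, had 4 intervals, and each was among the denser ones. Its TSS interval had 960 and 944 (952 ± 11.5). Its densest distal interval, chr3:87957812-87959725, 9.15 kb from the start, had 1429 and 1475 (1452 ± 32.4), above 99.3% of distal intervals. Crabp1 (chr9:54764748-54773110, plus strand) had a TSS interval of 359 and 358 (359 ± 1.00), and its densest distal interval, chr9:54752242-54753288, 11.5 kb upstream, was 3.86 ± 0.178 times as dense, at 1342 and 1426 (1384 ± 60.0). Dhrs3 (chr4:144892827-144928209, plus strand) had 22 intervals, and its TSS interval had 392 and 422 (407 ± 20.8). Its densest distal interval, chr4:144949254-144950248, lies downstream of the gene, 56.1 kb from the nearest start, at 1059 and 1132 (1095 ± 52.0). The Dhrs3 intron interval with a DR5, chr4:144897980-144898518, was by contrast weak, at 59.4 and 70.5 (64.9 ± 7.83) with 32 and 38 counts, above only 17.2% of distal intervals.

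**Figure D2:**
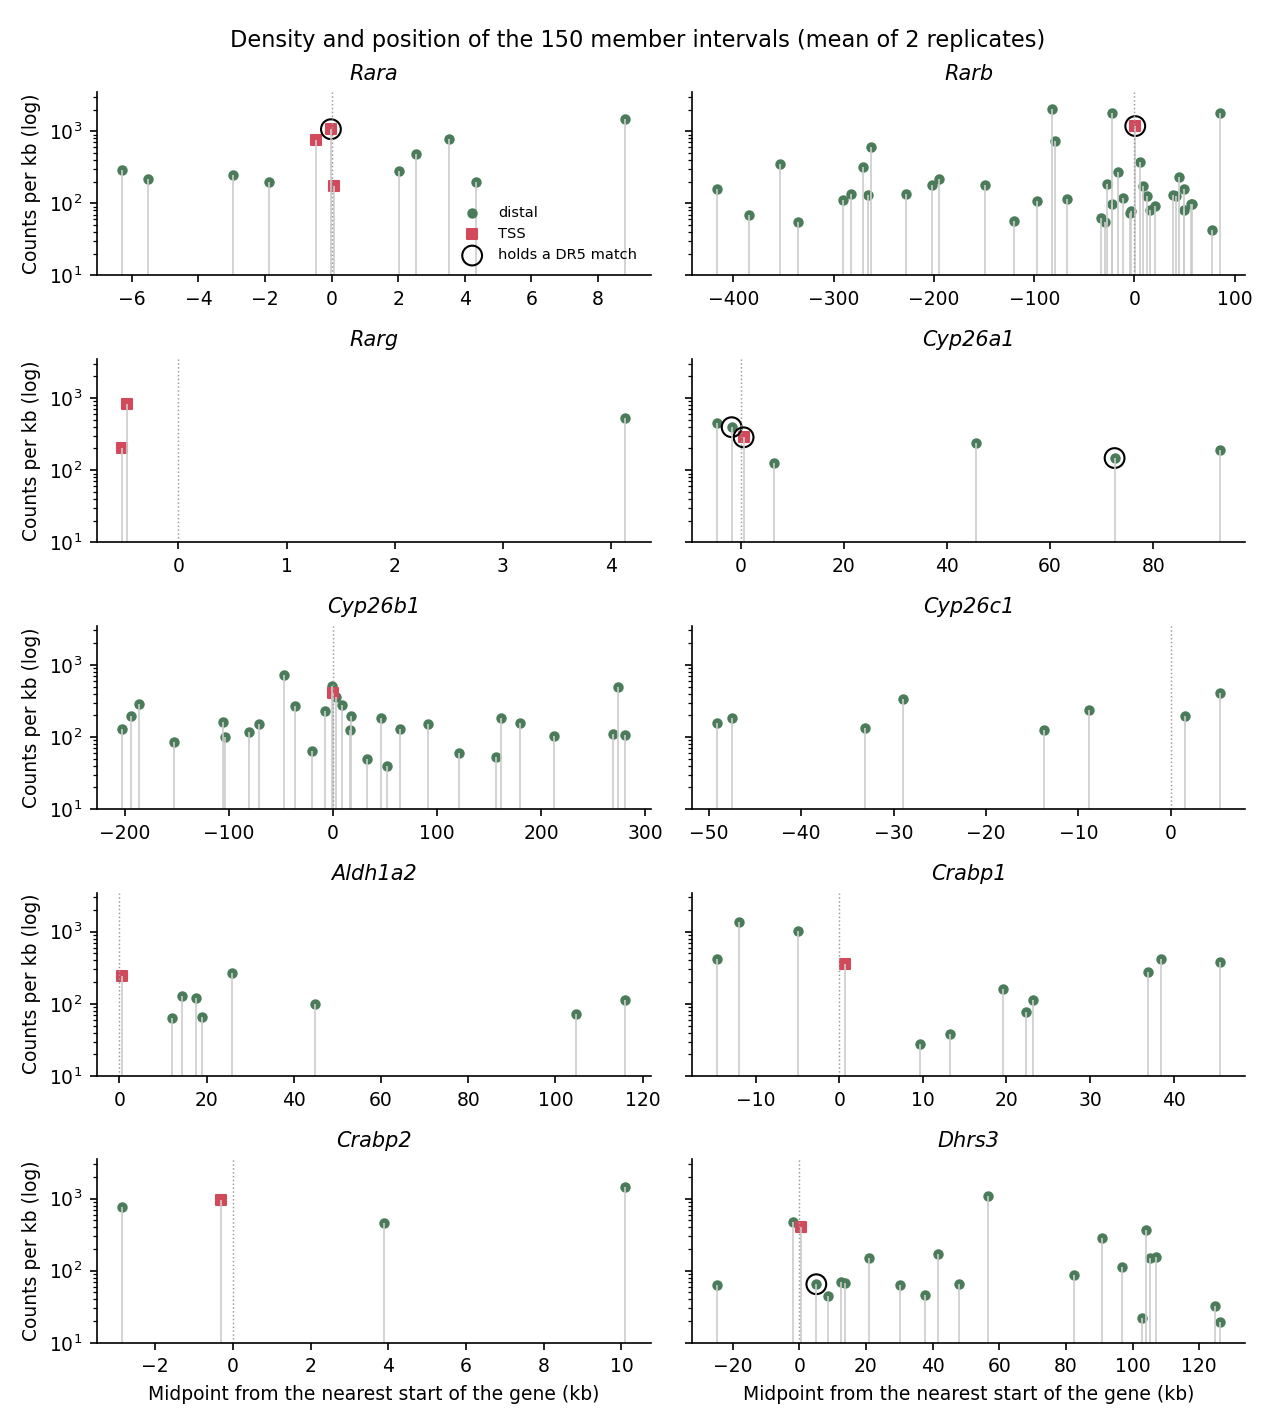
Density of the 150 intervals by gene, as normalised counts per kb on a log axis (mean of 2 replicates), against the distance of the midpoint from the nearest protein-coding start of the gene in kb, negative upstream. Squares are TSS intervals, dots distal ones and rings mark an exact DR5 match. The 3 densest intervals are assigned to Rarb, and the 6 ringed intervals range from 64.9 to 1179.

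In 9 of the 9 genes with a TSS interval the densest distal interval exceeded the promoter density in both replicates, when the TSS intervals of a gene were pooled, by 1.09 ± 0.0261 times in Rarg up to 3.86 ± 0.178 times in Crabp1. The same held for 2572 of the 8379 genes that had both kinds of interval (30.7%). Against the densest single TSS interval it held for 8 of the 9, since the downstream TSS interval of Rarg (833) exceeded its distal one (535), beside 29.3% of all such genes. By count per interval it held only for Rara, Crabp1 and Crabp2, 3 of the 9, beside 18.9%, and the other 6 did not exceed the promoter in both replicates. The distal interval was picked as the densest of several, and a gene with more intervals has more to pick from. The 10 members had a median of 10.5 intervals per gene, against 3 over all 21842 protein-coding genes. The latter include genes without any interval, and the median over the 8379 genes was not computed.

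Ordered by promoter density, Rarb (1179 ± 35.8) was followed by Crabp2 (952 ± 11.5), Rara (857 ± 30.9), Rarg (490 ± 13.9), Cyp26b1 (410 ± 28.5), Dhrs3 (407 ± 20.8), Crabp1 (359 ± 1.00), Cyp26a1 (286 ± 23.5) and Aldh1a2 (240 ± 17.9), each summed over the TSS intervals of a gene. The replicate ranges overlapped for 1 of the 8 neighbouring pairs, Cyp26b1 and Dhrs3, which cannot be ordered. With 2 replicates an exact permutation test of a pair cannot reach a p under 0.05. Rarb and Crabp2 were above the median of 853 over the 14623 genes with a TSS interval in both replicates, at the 70.1 and 56.8 percentiles. Rara lay on both sides of this median, at 879 and 835 (50.3 percentile), and the other 6 genes lay between the 10.9 and 25.3 percentiles. The median was taken over the means of the replicates, not within each replicate. The count per interval put Cyp26b1 and Rarg ahead of Rara. On that scale Cyp26b1 (1351), Rarg (1288) and Dhrs3 (1178) exceeded the median of 1034 over all TSS intervals, as did Rarb, Crabp2 and Rara. Crabp1 (639), Aldh1a2 (630) and Cyp26a1 (493) lay below it. With 1 start per gene, the 5′ end of the gene record, Rara stood at 172 and Rarg at 201, below Crabp1, Cyp26a1 and Aldh1a2, and Rarb and Cyp26b1 had no TSS interval.

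**Figure D3:**
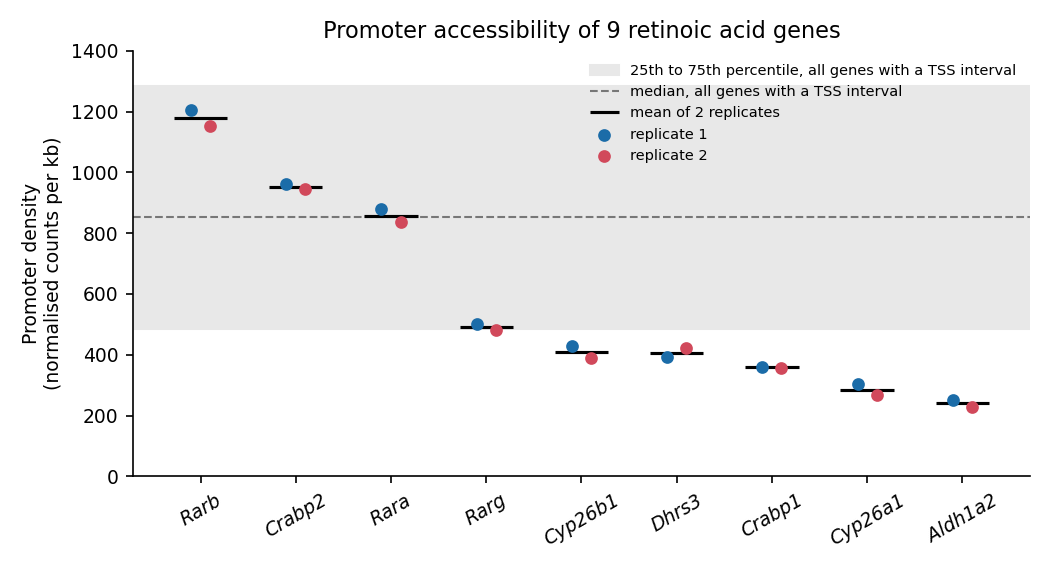
Promoter density (normalised counts per kb, linear axis from 0) of the 9 genes with a TSS interval. Points are the replicates, bars their mean, the dashed line the median of all genes with a TSS interval (853) and the grey band their 25th to 75th percentile (486 to 1285). Rarb and Crabp2 lie above the median, the replicates of Rara lie on both sides of it and the other 6 genes lie below it. By count per interval, Rarg, Cyp26b1 and Dhrs3 exceeded the median of all TSS intervals.

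Over the whole set, 12 of the 150 intervals overlapped a start (8%, Wilson 95% interval 4.64 to 13.5), beside 12.4% of all intervals. The Wilson interval takes the 150 as independent draws. They cluster at 10 genes, 42 at Rarb and 31 at Cyp26b1, so it does not test the difference from 12.4%. When all annotated genes competed for intervals the member share was 12.6%, and with 1 start per gene it was 5.07%. The share over all intervals was not computed under either rule, so these values cannot be set against the 12.4%. The 12 intervals held 31.7% ± 0.881 of the counts of the 150 intervals, beside 55.0% ± 0.629 over all intervals. With 1 start per gene the member value was 13.8%, and the value over all intervals was again not computed. The median density of the 12 was 408 ± 3.88, beside 797 ± 17.7 for all TSS intervals, and that of the 138 distal ones was 148 ± 2.33, beside 124 ± 2.01. The TSS intervals of these genes were longer, with a median of 2170 bp against 1212 bp, and by count per interval their median of 1265 ± 17 was higher than the 1034 ± 22.5 of all TSS intervals. The direction of that difference therefore turns with the scale. A mean normalised count over 100 was reached by 63 of the 150 intervals (42%), beside 38.8% of all intervals. The densest 10 intervals ranged from 1036 to 2052 normalised counts per kb, and 8 were distal. By annotation, 67 of the 138 distal intervals were intergenic (48.6%) and 63 intronic (45.7%), beside 40.2% and 45.1% of all distal intervals.

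**Figure D4:**
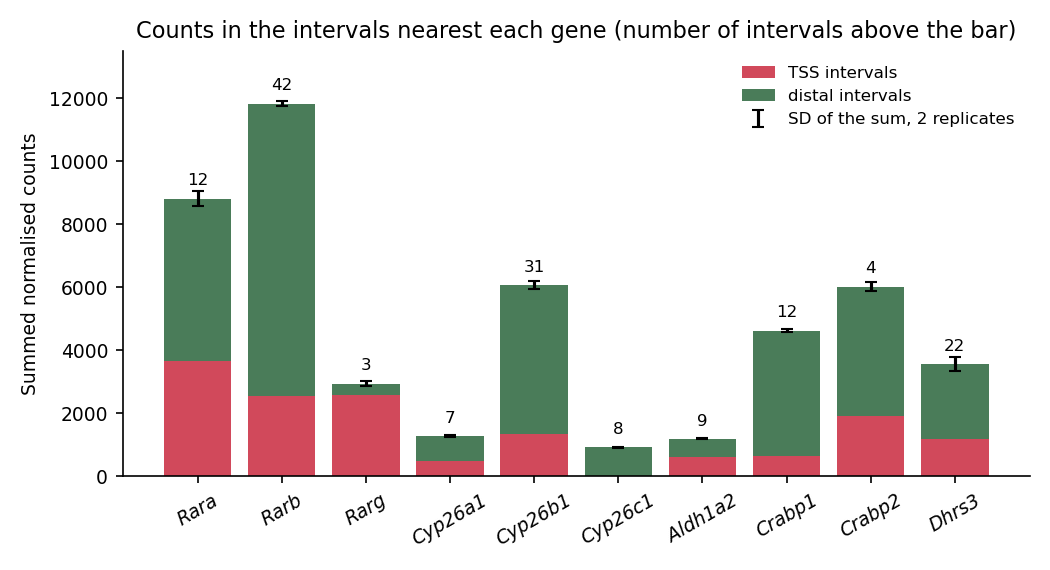
Summed normalised counts in the intervals nearest each gene, split into TSS and distal intervals (stacked bars from 0, error bars the SD of the sum over 2 replicates, number of intervals above each bar). Rarb holds the largest sum, 11824 ± 78.0 over 42 intervals, and Cyp26c1 the smallest, 927 ± 17.5 over 8.

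Summed over its intervals, Rarb had 11824 ± 78.0 normalised counts, Rara 8808 ± 235, Cyp26b1 6076 ± 124 and Crabp2 6020 ± 131, with the last resting on 4 intervals. The sums of Cyp26b1 and Crabp2 overlapped between replicates. The share of the sum in TSS intervals ran from 13.8% in Crabp1 to 87.5% in Rarg, apart from Cyp26c1, which has no TSS interval. The sums cover unequal spans, since the stretch of genome closest to a start of Rarb is 745 kb long and that of Crabp2 20.3 kb. Per 100 kb, Rara had 22.3 intervals, Crabp2 19.7 and Crabp1 18.6, while Rarb had 5.64 and Cyp26b1 5.87, beside a median of 6.11 over all protein-coding genes.

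An exact DR5 was present in 6 of the 150 intervals, beside 811 of all intervals (0.679%). A longer interval has more room for a match. Among intervals of 0.8 to 1.25 times the length of each matched member, the share with a DR5 was between 0.365% and 1.36%. In windows of 300 bases around the midpoint, 3 of 150 member intervals (2%) and 0.375% of all intervals had a match. Of the 12 member TSS intervals 0 had one, beside 0.0605% of all TSS intervals. The Rarb, Cyp26a1 promoter and Rara sites lay 727, 530.5 and 375 bp from the centre of their intervals. Density was measured over the whole interval and not at the site. Among RefSeq promoter windows, 2 of the 15 windows of 9 member genes had one, beside 32 of 32851 (0.0974%). Crabp2 had no window in the table used. Several of these genes are textbook carriers of such elements, so the matches are background to the densities rather than a finding. The half-sites with 2 bases between them (DR2) occurred in 2 member intervals, the Crabp2 TSS interval, with the site AGTTCACCAGGTCA, and a weak interval 156 kb from Cyp26b1 (53.7 ± 2.53). With 1 base between them (DR1) they occurred in 2, an interval 4.51 kb upstream of Crabp1 (1036 ± 25.7) and one 45.4 kb from Cyp26b1 (185 ± 0.107). These 4 were named after their values were seen. Over all intervals DR2 was found in 0.673% and DR1 in 0.998%. Other short motifs were counted on both strands over whole intervals, with the homeodomain core TAATTA in 14.7% of member intervals (12.9% of all), the E-boxes CATCTG in 53.3% (44.3%) and CATATG in 12% (9.97%), and the SOX cores ACAAAG in 46% (48.3%) and ACAATG in 33.3% (34.3%). A match describes letters and not binding.

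The 6 DR5 intervals differed among themselves by more than the replicate spread. Of the 3 that are TSS intervals, Rarb (1179) and Rara (1067) were above 72.6% and 66.8% of all TSS intervals, and Cyp26a1 (286) above 17.3%. Among the distal ones, that upstream of Cyp26a1 (395) was above 89.9% of distal intervals. The one 72.4 kb from Cyp26a1 (147) was above 59.4%, and that within Dhrs3 (64.9) above 17.2%. The replicate ranges of the intervals at 286 and 395 did not overlap, nor did those of the intervals at 147 and 64.9.

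Of the 150 intervals, 0 differed between the libraries at an adjusted p limit of 0.01 (exact binomial test, Benjamini-Hochberg over all 119502 intervals) (0% of all), and 9 had an unadjusted p under 0.05 (6%), beside 8.39% of all intervals. Of these 9, 5 were higher in replicate 2 and 4 in replicate 1. The classes shifted in opposite directions. Over all intervals the median density was 810 in replicate 1 and 785 in replicate 2 for TSS intervals, and 123 and 126 for distal ones. Among the members it was 411 and 406 for TSS intervals, and 147 and 150 for distal ones. Replicates were over 2-fold apart in 4 intervals (2.67%), beside 3.4% of all, and those with a mean over 100 were over 1.5-fold apart in 0 of 63, beside 0.108%. The SD of the log2 ratio of the normalised counts plus 1 was 0.33 over the 150, beside 0.38 over all, and 0.15 among the 63, beside 0.14. The largest ratios among the 63 were at chr14:16554163-16555432 in a Rarb intron, with 104 and 131 counts (log2 ratio 0.33, exact binomial p 0.0897, adjusted p 0.668), and at chr4:144989089-144990928 nearest Dhrs3, with 183 and 227 counts (0.31, exact binomial p 0.0336, adjusted p 0.549). The interval of lowest density, at chr4:145019132-145019701 and 126 kb from Dhrs3, had 8 counts (exact Poisson 95% interval 3.45 to 15.8) and 14 (7.65 to 23.5), so its level is poorly fixed at this depth.

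**Figure D5:**
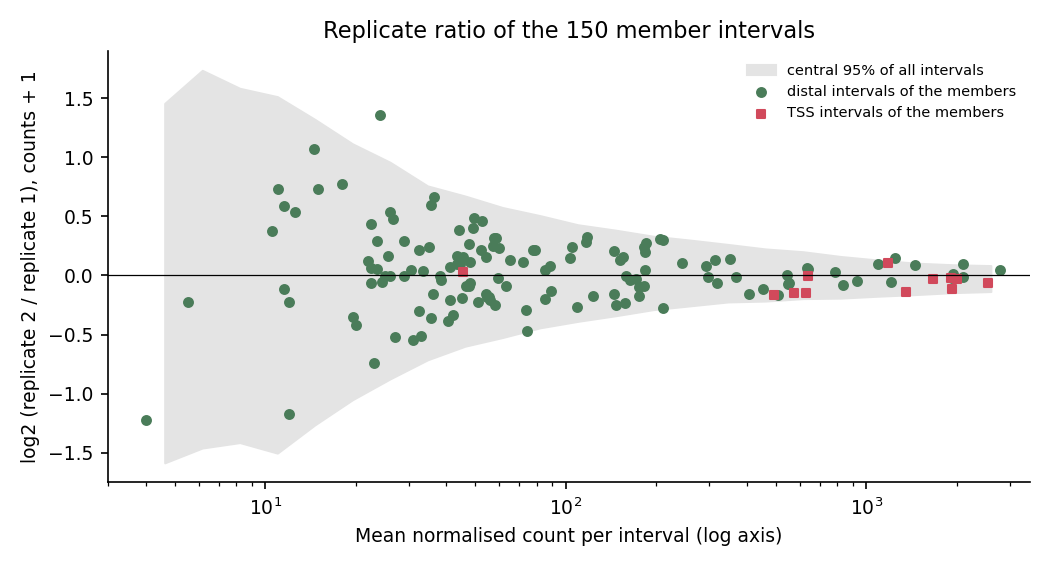
Log2 ratio of replicate 2 to replicate 1 (normalised counts plus 1) against the mean normalised count (log axis) of the 150 intervals, with the central 95% of all intervals in grey. The spread narrows from weak to strong intervals, and the 12 TSS intervals sit between -0.17 and 0.10.

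Other genes of the pathway were described from fixed lists, chosen for their roles. Of 14 further retinoid genes (receptor partners, transporters and enzymes), 12 had a TSS interval, beside 66.9% of all 21842 protein-coding genes. Their promoter densities ran from 128 to 1421 with a median of 551, beside 853 over all genes, and 4 exceeded the latter. Rdh10, which makes retinaldehyde, had 1284 and 1299 (1292 ± 10.1), and the receptor partner Rxrb had 1508 and 1334 (1421 ± 123). Rxra, with 612 and 519 (565 ± 65.9), and Rxrg, with 526 and 548 (537 ± 16), lay below the median. All 6 coregulator genes had a TSS interval, with a median of 793 and a range of 551 to 1733, the highest in the coactivator gene Ncoa2. Of 10 genes known as retinoic acid targets, 9 had a TSS interval, with a median of 458. The shares of intervals with a mean over 100 were 33.9% near the further pathway genes, 34.1% near the coregulators and 54.0% near the targets, beside 42% near the members and 38.8% over all intervals.

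The labelled cell type was checked on marker promoters. The 5 progenitor genes (Olig2, Sox2, Pax6, Nkx6-1 and Nkx6-2) all had a TSS interval. Their median promoter density was 862, beside 853 over all genes with a TSS interval. Nkx6-1 had 1452, Olig2 946 ± 23.2 and Sox2 862, while Nkx6-2 (656) and Pax6 (613) lay below the median of all genes. Of 5 motor neuron genes 4 had a TSS interval, beside 66.9% of all protein-coding genes, with a median of 466. Isl1 lay at 1087 ± 36.9. Mnx1 (557), Lhx3 (376) and Slc18a3 (300) lay below the median of all genes, and Chat had no TSS interval. Of 4 pluripotency genes 2 had one (at most 282), of 4 fibroblast genes 3 (at most 291) and of 4 mesoderm genes 1 (204), while Pou5f1 and Nanog had none.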

How the data were processed

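The authors deposited raw fragment counts per consensus interval. Per the file header, featureCounts 2.0.1 counted read pairs and gave a fragment to each interval that it overlapped by at least a fraction of 0.2, so 1 fragment can enter more than 1 interval. The methods state alignment to mm10 and MACS peaks at a false discovery rate of 1e-05 kept where replicates shared them. The intervals were built over 5 libraries, and 3 columns that belong to no sample of the series were not used. DESeq2 (1.42.0) size factors normalised the counts, and Python 3.11.15 with scipy 1.17.1 and statsmodels 0.14.6 was used elsewhere. Intervals were assigned by edge distance to the starts of protein-coding transcripts in GENCODE M21, on the assembly of mm10, and 15 of 15 member promoter windows read the same in the genome file. Promoter density was the summed normalised count over the summed length of a gene's TSS intervals. The libraries were compared by a two-sided exact binomial test against the size-factor share over all intervals with Benjamini-Hochberg adjustment. The test was checked on counts simulated from its own binomial model. These held no added variation between libraries, so the check does not cover such variation. The test compares libraries and not conditions.

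Named intervals were all TSS intervals, the densest distal interval of each gene with a mean normalised count over 100, every interval with a DR5 and the 2 largest replicate ratios. Members and gene lists were chosen with earlier results of these data known, and a value from the gene lists is not reported here. Depth was 31876165 and 31672240 counts. Fragments carried no molecular identifiers, so intervals cover counting error only. Alternatives covered the starts, distance, competing genes, normalisation (edgeR 4.0.16 TMM, total counts), filters, interval length, half-sites and each replicate left out.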

Additional observations from a re-analysis of the deposited data

How the results depend on the processing

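Normalisation by edgeR TMM factors or by total counts changed none of the member counts, medians or promoter densities beyond the replicate spread, the adjusted binomial test called 0 member intervals with either and with a mean of at least 10, and the midpoint distance gave the same 150 intervals. No paired analysis was possible because the labels hold only 1 group. When all annotated genes competed for intervals, 95 were assigned to the members, with 39.4% of their counts in TSS intervals and a distal median density of 162. With 1 start per gene, the gene record's 5′ end, 13.8% of counts lay in TSS intervals, the medians were 286 for TSS and 152 for distal intervals, and 4 of the 5 neighbouring pairs that could be compared kept their order, with Rara and Rarg reversed. By that rule Rara (172) and Rarg (201) were read at their upstream starts, and Rarb and Cyp26b1 had no TSS interval. Within 1 kb of a start the share of counts was 33.4%. Among member intervals with a mean over 100 the TSS share was 17.5% (11 of 63), beside 13753 of 46369 among all intervals over that mean. With a mean of at least 10 the distal median of the members was 151. Counts per interval gave medians of 1265 (TSS) and 57.2 (distal), kept 5 of 8 pairs, and put the densest distal interval above the promoter in 3 genes, an alternative chosen after seeing the data. A pseudocount of 10 gave an SD of the log2 ratio of 0.23. The wider half-sites, which also allow G in place of the C, gave 10 intervals with a DR5, adding 1 of Rarg and 3 of Cyp26b1. The share of all intervals with such a wider match was not computed. The 300-base window gave 3 with the exact half-sites, beside 0.375% of all intervals. Leaving out each replicate gave 61 to 62 intervals over 100 and kept between 7 and 8 of the 8 pairs, with Dhrs3 above Cyp26b1 when replicate 1 was left out. Weak intervals are limited by depth: 2 of the 150 had a mean under 10.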
